A study of Mus musculus with 12 samples.

Results

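The RNA-seq libraries described here compare dendritic cells (DCs) taken from MC38 tumors at 2 stages of growth: 2 libraries from an early stage (day 7) and 2 from a late stage (day 14). All libraries of these stages were taken, which makes 4 of the 12 libraries of the study, and every gene that passed a filter on low counts was compared, 13040 in all. MC38 is a mouse colon carcinoma line. In the host mice TdTomato reported on Zbtb46, which encodes a transcription factor that conventional DCs and their committed precursors use and that vascular endothelium also transcribes. The labels give the genotype of both stages as WT and the cell type only as immune cells. They name no surface gate beside the reporter, and they leave out if both libraries of a stage came from 1 animal, separate animals or pools. The p-values thus cover library-to-library spread, part or all of which may be technical. Values are CPM, read counts scaled to a common library total and adjusted by the TMM method, and each pair of values gives replicate 1 before replicate 2. Wild-type bone marrow-derived DCs (BMDCs), cultured without a tumor, come from a separate count table. These cultures were left unstimulated or given lipopolysaccharide (LPS) at 200 ng/ml for 12 h. They are used only to show what a gene's level was in cultured DCs, with no test across the tables.

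DCs take up antigen and present it to T cells. Type 1 conventional DCs (cDC1) are specialised in cross-presentation of dead-cell antigen to CD8 T cells, type 2 (cDC2) in priming CD4 T cells, and either can mature into a migratory form that carries antigen to the lymph node. Tumors also hold monocytes and macrophages, which digest material in acid lysosomes, recycle iron from engulfed cells and respond to low oxygen through hypoxia-inducible factors. Interferon-gamma, made by T and natural killer (NK) cells, induces guanylate-binding proteins, immunity-related GTPases and antigen-presentation genes in such myeloid cells.

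Between day 7 and day 14 22 genes fell, 11 of them genes of T, regulatory T and NK cells, and 9 genes of other kinds rose, among them a lysosomal proton pump subunit, the peptide adrenomedullin, an iron exporter and the chemokine Pf4. edgeR's quasi-likelihood test called 31 of 13040 genes at a Benjamini-Hochberg adjusted p under 0.05, 22 lower (0.169% of the genes tested) and 9 higher (0.069%). All 31 lay close to that threshold, with adjusted p from 0.0399 to 0.0474. The log2 fold changes ran from -3.30 to -1.75 for the lower and from +1.45 to +2.14 for the higher genes. DESeq2 called 80 genes higher (0.613%) and 231 lower (1.77%), including all 31, and limma-voom called 0, with 1497 genes at an unadjusted p under 0.05 (edgeR had 530 higher and 992 lower at that level). No edgeR call was left when either late library was omitted, when libraries were scaled by DESeq2's size factors, or when only genes of at least 10 CPM were tested. All 31 kept their direction in each of these fits.

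The cells matched their DC label in part. The DC genes Zbtb46 (19.7 and 45.6 CPM early, 29.2 and 23.3 CPM late), Flt3 (63.4 and 135 CPM early and 81.7 and 104 CPM late), which encodes the growth factor receptor of DCs, and Xcr1 (43.3 and 47.9 CPM early and 29.5 and 45 CPM late), the chemokine receptor that marks cDC1, were present in all 4 libraries. Markers of macrophages were present as well. Adgre1, which encodes the F4/80 antigen, stood at 519.5 and 350.2 CPM early and 476 and 508 CPM late, and the complement gene C1qa at 2197 and 868 CPM early and 2103 and 2838 CPM late. The T cell receptor subunit gene Cd3e had 58.5 and 26.8 CPM early and 9.45 and 3.86 CPM late. In bulk RNA of such a mixture, fewer cells of a type and less RNA per cell cannot be told apart.

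The 4 libraries held 14153700 to 19293261 counts. Those of a stage differed from each other by more than 2-fold for 1746 genes at day 7 and for 1313 at day 14. On the first principal component (56.7% of the variance) both late libraries lay apart from both early ones, late library 2 farther than late library 1, and the second (27.98%) separated the 2 early libraries from each other. Both late libraries lay above both early ones for 2995 genes (23%) and below them for 2901 (22.2%). With a change of over 2-fold in addition, 288 genes were above (2.21%) and 921 below (7.06%). Genes nearly absent from cultured DCs, under 1 CPM in all 4 wild-type BMDC libraries, made up 8.80% of all genes tested, 37.7% of those 921 and 23.6% of those 288. Of the genes named here, Ankrd37, Cd274, Cd74, Ciita, Ctss, Ctsw, Ebi3, Il1a, Il1b, Nos3, Pfkp, Septin1, Stab1, Tapbpl, Tcf7, Tigit, Timp3, Tmem176b, Tnfrsf4, Zbtb46 and Zmynd15 share part of their span with another tested gene or an antisense RNA, so their reads may include some of its reads.

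**Figure D1:**
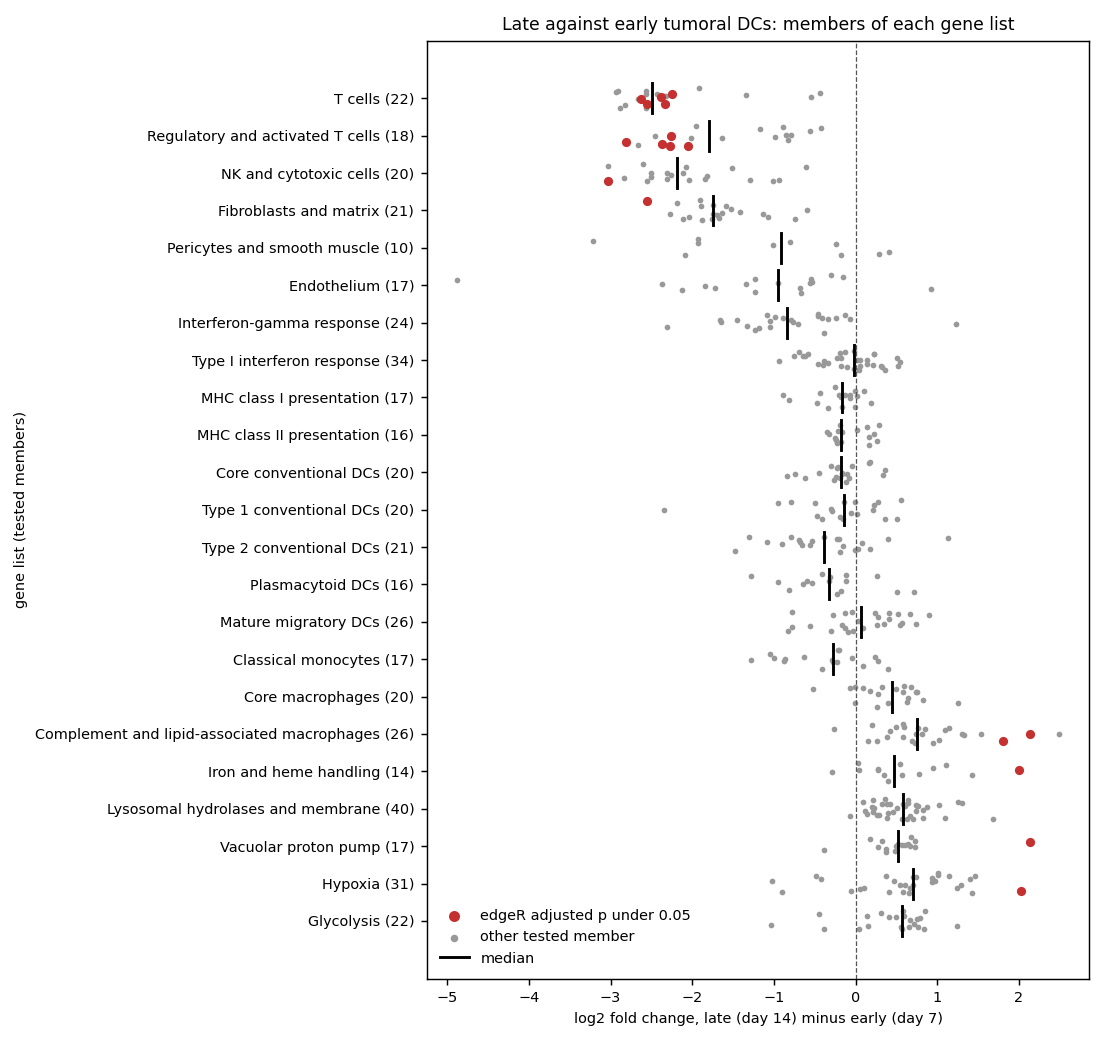
Log2 fold change (late minus early, x axis) of every tested member of 23 gene lists (y axis, tested members in brackets), with the median of each list as a black bar and genes past an edgeR adjusted p of 0.05 in red. T, NK, fibroblast and endothelial lists lie left of 0, core and type 1 conventional DC lists near 0, and macrophage, lysosome and hypoxia lists right of 0.

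Lymphocyte genes were lower at day 14. Of the 22 tested T cell genes 5 fell and 0 rose, and 20 were lower in both late libraries than in both early ones, each of these 20 by more than 2-fold. DESeq2 called 20 of the 22 lower. The median log2 fold change of the list was -2.49, beside 0.012 over all genes. Zap70, the kinase that binds the activated T cell receptor, stood at 49.7 and 39 CPM early and 10.6 and 6.29 CPM late (log2 fold change -2.39, SE 0.32, edgeR adjusted p = 0.0405). Lck, the kinase upstream of it, had 84.7 and 75.4 CPM early and 18.4 and 15.2 CPM late. In both genes the lower early library lay more than 3-fold above the higher late one. Thy1, a surface glycoprotein of T cells and also of some fibroblasts, fell from 216 and 154 to 40.6 and 22.3 CPM (-2.55, SE 0.34).

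Cd8b1, the beta chain of the CD8 co-receptor, fell from 69.9 and 41.5 to 12.6 and 9.39 CPM (-2.34, SE 0.33, adjusted p = 0.0405), and the adhesion receptor gene Cd2 from 50.01 and 38.1 to 8.56 and 5.61 CPM (-2.63, SE 0.31). The 2 tested T cell genes whose stages overlapped were Tcf7, a transcription factor of naive and memory T cells, and Cd4. Cd4 had 14.1 and 23.7 CPM early and 14.6 and 13.1 CPM late, and Tcf7 13.1 and 35.4 CPM early and 18.5 and 14.5 CPM late. Tcf7 is the member that was highest in unstimulated BMDCs (259 and 278 CPM). Cd3e had 0.829 and 0.434 CPM in those libraries.

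Among genes of activated and regulatory T cells 5 of 18 fell, Cd226, Ctla4, Tigit, Pdcd1 and Tox, and 0 rose. Ctla4, the receptor that competes with CD28 for its ligands, had 48.1 and 54.2 CPM early and 9.57 and 11.6 CPM late (-2.27, SE 0.26, adjusted p = 0.0399). Pdcd1, which encodes the PD-1 receptor, had 94.1 and 64.5 CPM early and 19.7 and 18.4 CPM late (-2.06, SE 0.27), and Tox, a transcription factor of exhausted T cells, 24.8 and 17.2 CPM early and 3.99 and 4.17 CPM late (-2.37, SE 0.35). None of these ranges overlapped between the stages. Foxp3, the factor that defines regulatory T cells, was low in all libraries, at 0.747 and 5.4 CPM early and 1.71 and 1.52 CPM late, with overlapping stages. In all, 16 of the 18 were lower in both late libraries, DESeq2 called 9 of the 18 lower, and the median was -1.79.

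Among 20 genes of NK and cytotoxic cells 1 fell, Sytl2, which docks lytic granules at the membrane, and 19 were lower in both late libraries (median -2.19). DESeq2 called 15 of the 20 lower. Sytl2 had 25.8 and 27.9 CPM early and 3.55 and 2.95 CPM late. The granule proteases and pore proteins were more uneven within a stage. Gzmb, which encodes granzyme B, stood at 461 and 217 CPM early and 65.7 and 16.9 CPM late (-3.03, SE 0.79, adjusted p = 0.310), and Gzma, granzyme A, at 34.6 and 73.6 CPM early and 10.8 and 4.09 CPM late. Late library 2 was lowest for both. The NK receptor gene Ncr1 had 9.11 and 12.1 CPM early and 4.82 and 0.985 CPM late, and Ifng, the gene of interferon-gamma itself, 29 and 27.3 CPM early and 10.5 and 5.15 CPM late (-1.84, SE 0.36, adjusted p = 0.0987). The stages of Ncr1 and Ifng did not overlap, although neither gene passed the test. Ccl5, a chemokine that T, NK and activated myeloid cells all make, overlapped at 159 and 186 CPM early and 164 and 61.7 CPM late.

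A further 11 symbols that fell are on none of these lists. Of them 6 are known from T or NK cells: the adaptors Sh2d2a (109.6 and 121 CPM early, 25.9 and 15.8 CPM late) and Lax1 (12.8 and 14.4 CPM early, 1.71 and 0.985 CPM late), the kinase Prkcq (19.987 and 22 CPM early, 3.23 and 1.21 CPM late), the GTPase Gimap4 (84.6 and 72.9 CPM early, 17.1 and 10.4 CPM late), the zinc-finger factor Ikzf3 (37.6 and 34.6 CPM early, 7.42 and 3.41 CPM late) and the protease Ctsw (46.7 and 51.3 CPM early, 11.5 and 5.53 CPM late). Rgs16, which shortens chemokine receptor signalling, fell from 74.5 and 133 to 21.4 and 19.4 CPM, the thrombin receptor gene F2r from 29.9 and 21.2 to 5.64 and 3.18 CPM, and the actin-binding Ablim1 from 68 and 80.9 to 20.7 and 11.7 CPM. Septin1 fell from 57.3 and 57.8 to 17.2 and 17 CPM, but the overlapping gene model Gm4532 holds identical counts, so these are 1 measurement with 2 symbols. Of the 22 symbols that fell, 7 were under 1 CPM and 19 under 10 CPM in all 4 wild-type BMDC libraries. For the 9 genes that rose these numbers were 0 and 2. Over all genes tested 8.80% were under 1 CPM there, and the share under 10 CPM was not counted.

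**Figure D2:**
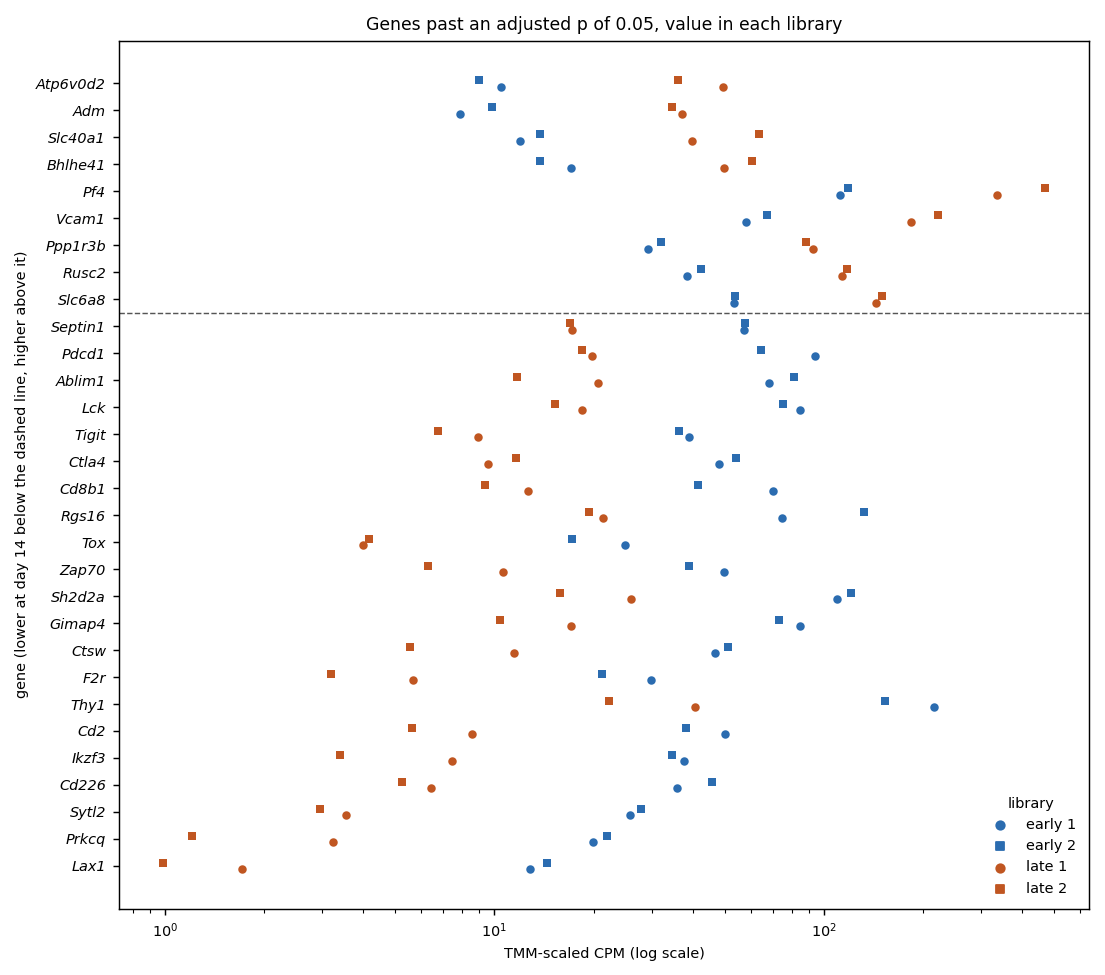
TMM-scaled CPM (x axis, log scale) of each gene past an adjusted p of 0.05 (y axis) in early libraries (blue) and late libraries (orange), circles for replicate 1 and squares for replicate 2; Gm4532, identical to Septin1, is left out. The stages do not overlap in any of the 30 genes drawn.

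Genes that interferon-gamma induces were lower beside the lymphocyte transcripts. None of the 24 tested members passed edgeR's test, 15 had an unadjusted p under 0.05, all lower, and DESeq2 called 11 lower. In all, 19 were lower in both late libraries and 10 of those by more than 2-fold, with a median of -0.84. The guanylate-binding protein genes Gbp4 (160.4 and 163 CPM early, 65.4 and 36.5 CPM late, -1.66, SE 0.30, adjusted p = 0.0858) and Gbp7 (77.6 and 83.8 CPM early, 33.5 and 17.7 CPM late, -1.65, SE 0.31) came closest. Gbp2b had 80.7 and 29.7 CPM early and 12.9 and 9.39 CPM late, and Irf1, the transcription factor that relays the signal, 441 and 381 CPM early and 249 and 168 CPM late. Each of these 4 genes was lowest in late library 2, which also had the lowest summed level of the T cell list. Early library 1 exceeded early library 2 for Gbp2b by more than 2-fold, and the size of its difference varies with the early library used. The list's median kept its sign without any single library, from -1.09 to -0.67. The share of this difference that goes with the fall in lymphocyte transcripts was not tested.

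Tap1, which encodes a subunit of the peptide transporter of antigen presentation, had 617 and 623 CPM early and 439 and 546 CPM late. It was lower in both late libraries but by less than 2-fold. Cd274, the gene of the PD-L1 ligand, overlapped between the stages (202 and 363 CPM early and 317 and 199 CPM late). The single member above both early libraries was Nos2, inducible nitric oxide synthase, at 73.1 and 187 CPM early and 399 and 208 CPM late (+1.23, SE 0.53, adjusted p = 0.456). Of 34 genes of the type I interferon response, many of which also answer to interferon-gamma, 6 were lower and 2, Ifit3 and Bst2, higher in both late libraries. The shares over all genes tested were 22.2% and 23%. The median of the list was -0.014. That median changed sign in 5 alternatives and lay between -0.23 and 0.27. Ifnb1, the interferon-beta gene, was higher in both, at 2.47 and 3.48 CPM early and 12.9 and 10.8 CPM late (+2.00, SE 0.38, adjusted p = 0.0968).

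**Figure D3:**
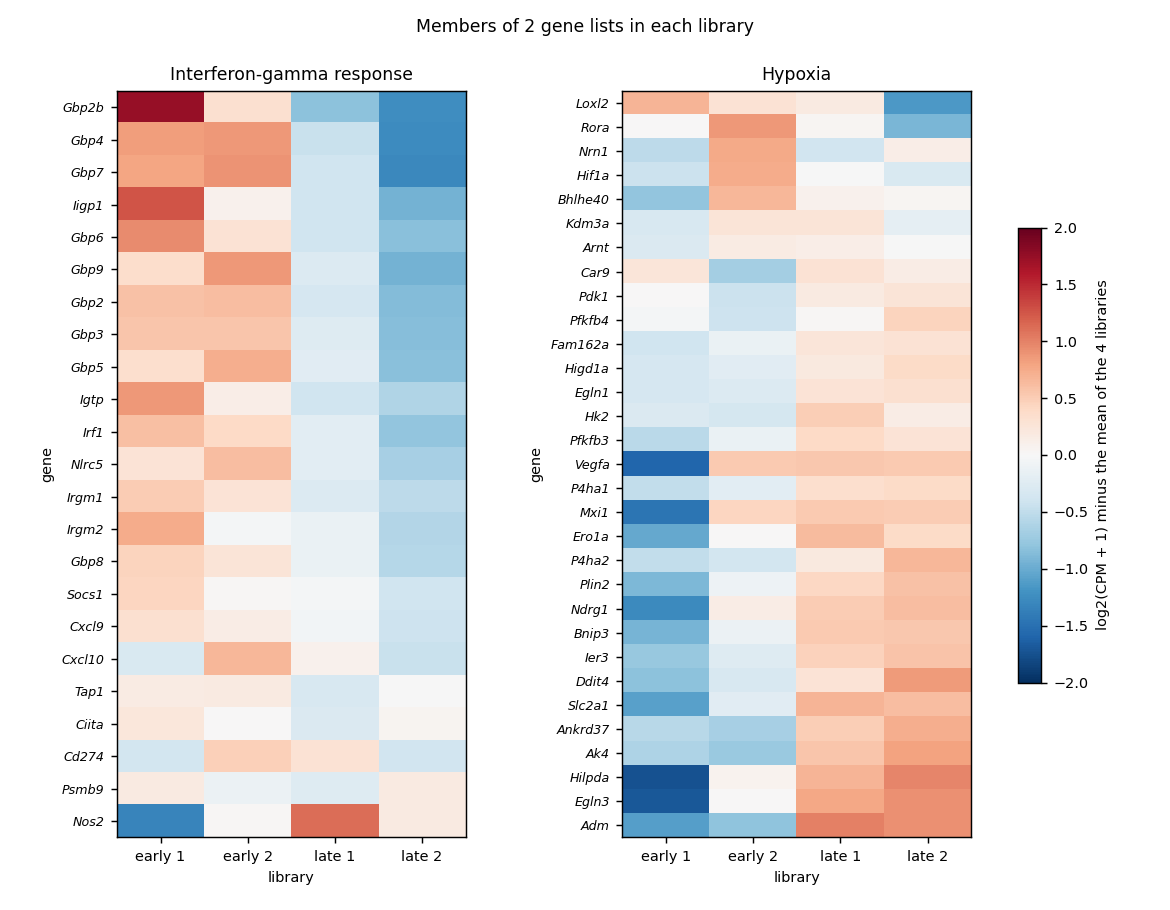
Colour gives log2(CPM + 1) minus the mean of the 4 libraries for members of the interferon-gamma response and hypoxia lists (rows, ordered by log2 fold change) in each library (columns). Most interferon-gamma genes are lowest in late library 2, and several hypoxia genes, such as Vegfa, are low in early library 1 alone.

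Transcripts of stromal cells were lower at day 14 too. Of 21 fibroblast and matrix genes 1 fell, Thy1, which T cells share, and 18 were lower in both late libraries, 16 of them by more than 2-fold (median -1.74). DESeq2 called 7 of the 21 lower. Col1a1, a chain of type I collagen, stood at 238 and 101 CPM early and 66.9 and 24.2 CPM late (-1.89, SE 0.64, adjusted p = 0.381), and the type III collagen gene Col3a1 at 348 and 146 CPM early and 83.9 and 18.4 CPM late. The ranges did not overlap, but early library 1 held more than 2-fold the level of early library 2, and late library 1 more than 2-fold that of late library 2. Postn, a matrix protein of activated fibroblasts, had 23.4 and 9.55 CPM early and 5.45 and 2.05 CPM late. The fibroblast receptor gene Pdgfra was low throughout, at 2.8 and 1.5 CPM early and 0.888 and 0 CPM late, and Fap did not pass the count filter. The summed level of the list was 1485 and 735 CPM early and 425 and 162 CPM late.

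Endothelial genes, of interest because the reporter gene is also active in vessels, had a median nearer 0. None of 17 passed edgeR's test (7 lower and 1 higher at an unadjusted p under 0.05, and DESeq2 called 2 lower), 14 were lower in both late libraries and 1 was higher, with a median of -0.95. Cdh5, the VE-cadherin gene, had 11.2 and 17.2 CPM early and 9.19 and 5.3 CPM late (-0.95, SE 0.39, adjusted p = 0.405), and Pecam1, which leukocytes also carry, 55.3 and 52.7 CPM early and 38.2 and 35.8 CPM late. Cdh5 was below 1 CPM in wild-type BMDCs, whereas Pecam1 reached 30.4 and 47.7 CPM in the unstimulated ones. The higher gene was Vwf, von Willebrand factor, at 7.19 and 9.19 CPM early and 15.8 and 15.2 CPM late. Genes of pericytes and smooth muscle were low in all libraries, with list sums of 22.8 and 40.8 CPM early and 16.7 and 20.7 CPM late, and 6 of 10 lower in both late ones.

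**Figure D4:**
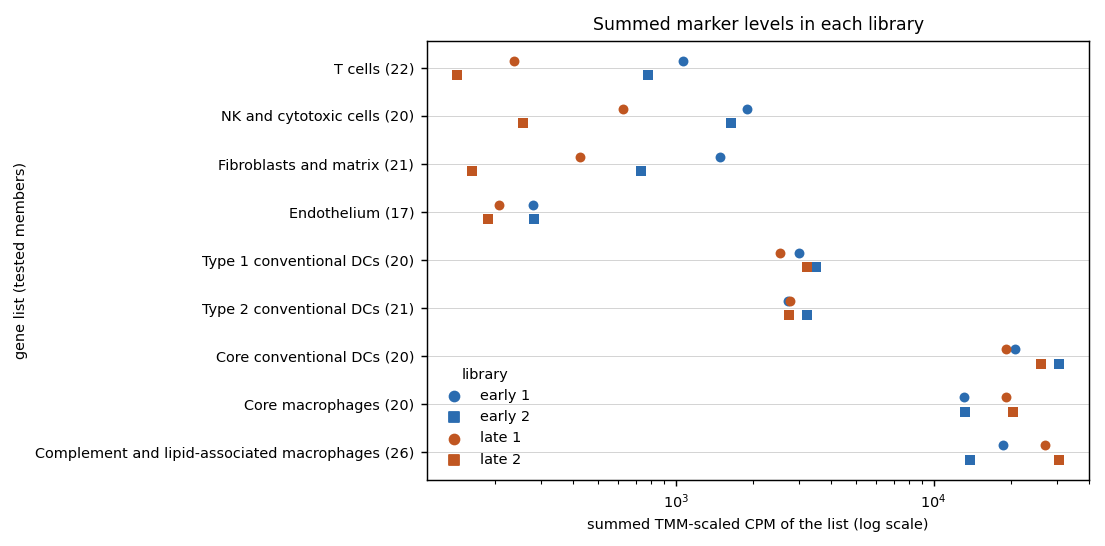
Summed TMM-scaled CPM (x axis, log scale) of 9 marker lists (y axis, tested members in brackets) in early libraries (blue) and late libraries (orange), circles for replicate 1 and squares for replicate 2. T, NK, fibroblast and endothelial sums are lower in both late libraries, macrophage sums are higher in both, and conventional DC sums overlap.

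Only the marker genes of admixed cells can be summed, and their other transcripts are not counted in these shares. The 60 tested genes of the T, regulatory T and NK lists held 0.371% and 0.312% of the scaled counts early and 0.121% and 0.0646% late. These are not shares of lymphocytes alone, since wild-type BMDCs held some of the same transcripts. The NK list summed to 623 and 255 CPM late, beside 696 and 606 CPM in unstimulated and 1395 and 1462 CPM in LPS-treated BMDCs. The T cell list summed to 237 and 142 CPM late, beside 318 and 350 CPM and 431 and 440 CPM in those cultures. The 48 genes of fibroblasts, pericytes and endothelium held 0.179% and 0.106% early and 0.0649% and 0.0369% late. When all 169 tested markers of other cell types were left out of both the scaling and the test, the 20 other called genes kept their direction, and the smallest adjusted p was 0.0541, so 0 of 12871 genes passed. The list medians for macrophage, lysosome and hypoxia genes kept their sign in that fit and in every other alternative that was run.

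Markers of tumor cells and of other leukocytes were uneven. The epithelial keratin genes Krt8 and Krt18 had at most 5 and 6 counts in any library and were not tested. Of the 6 tumor and epithelial genes that were tested, Cdh1 (16.1 and 39.99 CPM early and 48.7 and 47.5 CPM late) and Epcam (1.03 and 1.38 CPM early and 2.09 and 3.18 CPM late), both of which some DCs and macrophages also transcribe, were higher in both late libraries and Muc1 was lower, and the list sum was 22.5 and 47.6 CPM early and 55.9 and 54.2 CPM late. The B cell gene Ms4a1 had at most 9 counts. Of 11 neutrophil genes 9 were highest in late library 1, and the list sum was 183 and 413 CPM early and 613 and 304 CPM late. S100a8 stood at 4.53 and 9.73 CPM early and 54.8 and 4.47 CPM late, and S100a9 at 7.85 and 16 CPM early and 91.7 and 4.47 CPM late, so their stages overlapped. Of 8 erythroid genes listed 1 was tested, the beta-globin gene Hbb-bs, and another tested symbol holds identical counts. Its reads came from early library 1 almost alone, at 25.4 and 0.060 CPM early and 0.634 and 0 CPM late. Of 10 tested B and plasma cell genes 4 were higher and 4 lower in both late libraries (median -0.315), beside 23% and 22.2% of all genes tested. Among the higher, at low levels, were the antibody chain genes Jchain (0.28 and 0.060 CPM early, 1.52 and 2.12 CPM late) and Igkc (2.47 and 3.18 CPM early, 6.15 and 8.11 CPM late). Among the lower, also at low levels, were the antibody chain gene Ighd (1.73 and 1.68 CPM early, 0.44 and 0.53 CPM late) and Cd79a (1.12 and 1.2 CPM early, 0.44 and 0.23 CPM late). Of 8 mast cell genes 3 were lower in both late libraries, beside 22.2% of all genes tested. They were Cpa3, Il1rl1 and the chymase gene Cma1, the last at 4.39 and 7.51 CPM early and 1.52 and 2.42 CPM late.

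Core identity genes of conventional DCs gave no call by edgeR or DESeq2. In that list 1 gene had an unadjusted p under 0.05. Of the 20 members 18 overlapped between the stages, beside 7144 of all 13040 genes tested, 1 was above and 1 below. The median was -0.18, which turned to 0.20 without early library 2. Early library 2 exceeded early library 1 by a median of 0.84 on the log2 scale over these members, more than the stages differed. Zbtb46, the reporter gene, and Flt3, given above, both showed this order, with early library 2 highest. Itgax, which encodes CD11c and is shared with macrophages, was the member above both early libraries, at 370.0 and 402 CPM early and 485 and 503 CPM late (+0.36, SE 0.22). Dpp4, the peptidase CD26, was the one below, at 48.1 and 90.7 CPM early and 39.4 and 43.6 CPM late.

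For cDC1, 14 of 20 genes overlapped between the stages, beside 7144 of all 13040 genes tested. The median was -0.14, or 0.098 without late library 1. Irf8, the factor that cDC1 depend on, had 588 and 662 CPM early and 545 and 695 CPM late, and the log2 fold change of Xcr1 was -0.29 (SE 0.27). Clec9a, the receptor that recognises exposed actin of dead cells, was lower in both late libraries, at 33.2 and 48.6 CPM early and 19.5 and 27.7 CPM late (-0.79, SE 0.29, adjusted p = 0.360), and so was Batf3, at 41.9 and 33.7 CPM early and 25.5 and 31.4 CPM late. The member farthest from the others was Cd8a, at 158 and 94.2 CPM early and 30.05 and 19.4 CPM late (-2.35, SE 0.34, adjusted p = 0.0514). Cd8a is carried by CD8 T cells as well as by cDC1 of lymphoid organs, and DESeq2 called it lower. The part of CD8 T cell transcripts in its value was not tested.

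cDC2 genes had a median of -0.39, with 7 of 21 lower and 2, Sirpa and Epcam, higher in both late libraries. Over all genes tested 22.2% were lower and 23% higher. Irf4, a factor of cDC2 that T cells and B cells use as well, stood at 51.6 and 72.7 CPM early and 38.2 and 28.1 CPM late (-0.90, SE 0.27, adjusted p = 0.264). Ltb, the gene of lymphotoxin beta, which lymphocytes also make, had 36.8 and 30.9 CPM early and 11.4 and 13 CPM late (-1.47, SE 0.26, adjusted p = 0.0858). Neither gene overlapped between the stages and DESeq2 called Ltb lower, and the part of lymphocyte transcripts in these values was not tested. The other 5 lower members were Klf4, Clec12a, Notch2, Esam and Tmem176b. The cDC2 lectin genes Cd209a and Clec10a overlapped, at 29.2 and 83.8 CPM early and 32 and 54.5 CPM late and at 117 and 127 CPM early and 74.4 and 137 CPM late. Plasmacytoid DC genes had a median of -0.32, with Siglech at 23.7 and 42.5 CPM early and 33.7 and 8.41 CPM late.

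Genes of the maturation program of migratory DCs differed more between the 2 early libraries than between the stages. Of 26 tested members 4 (Ccl17, Marcks, Ebi3 and Zmynd15) were higher and 3 (Tnfrsf9, Tnfrsf4 and Serpinb6b) lower in both late libraries, beside 23% and 22.2% of all genes tested. The median was +0.064, while early library 2 exceeded early library 1 by a median of 1.07 on the log2 scale. Ccr7, which leads mature DCs to lymph nodes, had 101 and 557 CPM early and 337 and 309 CPM late, and Fscn1, the actin bundler of their dendrites, 82.4 and 384 CPM early and 399 and 378 CPM late. Early library 1 was the lowest of the 4 for both. Without early library 2 the log2 fold change of Ccr7 turned from -0.025 to 1.68. Zmynd15 was the member with the smallest p, at 29.5 and 36.6 CPM early and 61.4 and 62 CPM late (+0.90, SE 0.23, adjusted p = 0.203). The costimulatory ligand genes Cd80 (28 and 154 CPM early and 80.4 and 47.5 CPM late) and Cd86 (89.8 and 281 CPM early and 138 and 98.3 CPM late) followed the order of Ccr7, lowest in early library 1 and highest in early library 2.

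Antigen-presentation genes had medians near 0. For MHC class II the median was -0.17, or 0.11 without early library 2 and 0.088 without late library 1, and 13 of 16 genes overlapped. The other 3, Ifi30, Ctss and Rfxap, were higher in both late libraries. Cd74, the invariant chain, stood at 7989.6 and 12225 CPM early and 7262 and 10772 CPM late, and its regulator Ciita at 223 and 189.6 CPM early and 154 and 196 CPM late. In class I, 8 of 17 genes were lower in both late libraries and 0 higher (median -0.17), beside 22.2% and 23% of all genes tested. The smallest p-values were those of Nlrc5, the class I transactivator that interferon-gamma induces (189.9 and 240.0 CPM early and 135 and 98.3 CPM late, -0.88, SE 0.25, adjusted p = 0.243), and Tapbpl (79.8 and 80.8 CPM early and 51.4 and 39.7 CPM late), a peptide editor. The light chain gene B2m had 2433 and 2680.1 CPM early and 3054 and 2437 CPM late.

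**Figure D5:**
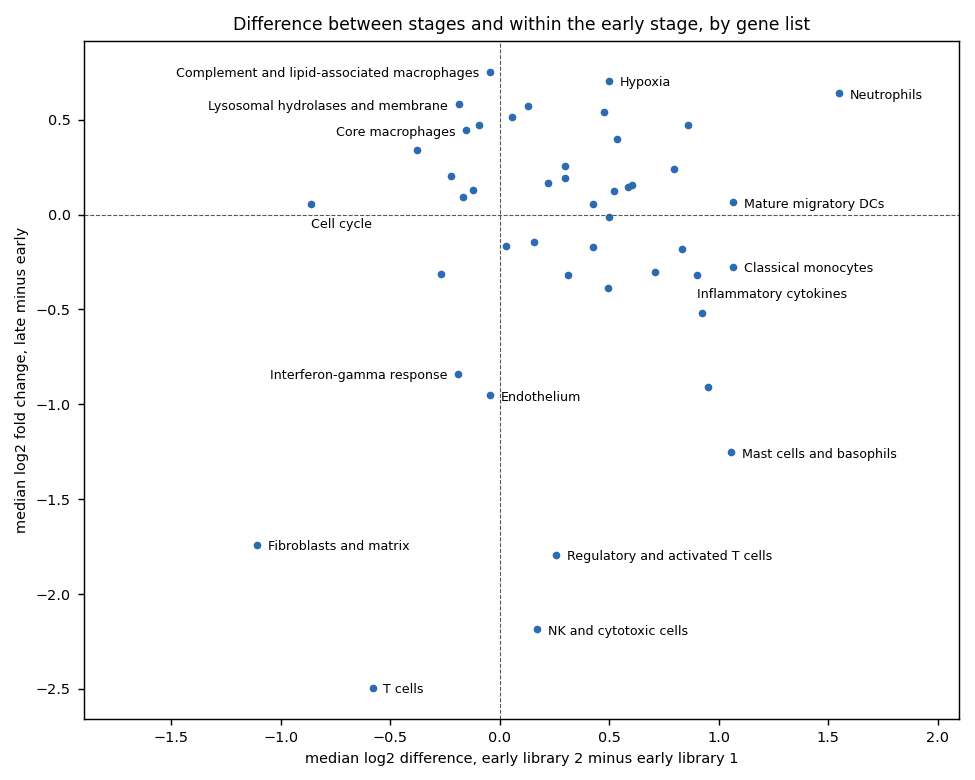
Each point is 1 gene list with at least 7 tested members: the x axis gives the median log2 difference of early library 2 minus early library 1, the y axis the median log2 fold change of late minus early, and only some lists are named. Mature DC, monocyte and cytokine lists differ more within the early stage than between the stages, and T, NK and interferon-gamma lists the reverse.

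Genes of classical monocytes had no stable direction. Among 17 genes of classical monocytes 4 (Ly6c2, Ccr2, Plac8 and Ifitm6) were lower and 1 (Lyz2) was higher in both late libraries (median -0.27). Over all genes tested 22.2% were lower and 23% higher. Ly6c2, the defining surface antigen of classical monocytes, stood at 136 and 168 CPM early and 78.8 and 46.4 CPM late (-1.28, SE 0.29, adjusted p = 0.164), and Ccr2, the receptor with which they leave the bone marrow, at 395 and 600.3 CPM early and 283 and 265 CPM late (-0.86, SE 0.26). Both were non-overlapping. Activated CD8 T cells also carry the Ly6C antigen, and the share of the difference that goes with their transcripts was not tested. The list's median was 0.47 without early library 2 and -1.07 without early library 1, so its sign depends on which early library is used.

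Most core macrophage genes were higher at day 14, but none of the 20 passed edgeR's test. At an unadjusted p under 0.05 in that test there were 6, all higher, and DESeq2 called 2 higher. Of 20 core members 14 were higher in both late libraries and 0 lower, beside 23% and 22.2% of all genes tested. The median was +0.44, and the list sum was 13123 and 13214 CPM early and 19076 and 20353 CPM late. Cd68, a glycoprotein of lysosomes and late endosomes, stood at 729 and 679 CPM early and 1152 and 1334 CPM late (+0.82, SE 0.23, adjusted p = 0.241). Adgre1 and Csf1r, more specific to the lineage, differed less. Csf1r, the receptor for the macrophage growth factor CSF-1, had 985 and 1031 CPM early and 1223 and 1307 CPM late (+0.33, SE 0.23), and the values of Adgre1 overlapped. The protease gene Ctsl had 281 and 427 CPM early and 788 and 900.1 CPM late (+1.25, SE 0.27, adjusted p = 0.139), the largest log2 fold change of the core list.

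Genes of complement-producing and lipid-associated macrophages held 2 of the 9 genes that rose, Pf4 and Atp6v0d2. Of 26 members 18 were higher in both late libraries and 0 lower, 9 of them by more than 2-fold, with a median of +0.75. DESeq2 called 7 of the 26 higher and 0 lower. Pf4, a chemokine of platelets and of tissue macrophages, had 112 and 118 CPM early and 335 and 470.0 CPM late (+1.81, SE 0.25, adjusted p = 0.0405). Pf4 was far higher in the tumoral cells than in wild-type BMDCs, where it was 4.8 and 10.3 CPM without and 4.2 and 4.56 CPM with LPS. The related platelet chemokine Ppbp was also higher in both late libraries (1.54 and 12.3 CPM early and 69.1 and 91.3 CPM late), with a wide spread at day 7. Fabp5, which carries fatty acids, stood at 225 and 277 CPM early and 588 and 668 CPM late (+1.32, SE 0.23, adjusted p = 0.0858).

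Trem2, the lipid-sensing receptor of these macrophages, had 168 and 96 CPM early and 243 and 341 CPM late (+1.14, SE 0.32, adjusted p = 0.243), and Gpnmb, a glycoprotein of their lysosomes, 425 and 249 CPM early and 995 and 668 CPM late. Neither overlapped. The complement component genes C1qa, C1qb and C1qc did overlap: early library 1 stood near the late libraries and early library 2 below them. C1qc, for one, had 1976 and 683 CPM early and 1742 and 2235 CPM late. Spp1, osteopontin, showed the opposite order within the early stage, at 170.1 and 904 CPM early and 1789 and 1331 CPM late (+1.54, SE 0.83, adjusted p = 0.561). Both late libraries were higher than both early ones for Spp1.

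Vcam1 rose as well. It encodes an adhesion molecule of activated endothelium that iron-recycling macrophages also express, and it stood at 58.2 and 67.3 CPM early and 184 and 221 CPM late (+1.69, SE 0.23, adjusted p = 0.0405). The endothelial list was lower over the same libraries, at summed levels of 281 and 283 CPM early and 207 and 187 CPM late, and which cells gave the Vcam1 transcripts was not tested. Stab1, a scavenger receptor of macrophages and sinusoidal endothelium, had 586 and 406 CPM early and 1159.7 and 1714 CPM late (+1.53, SE 0.30, adjusted p = 0.0976). Its stages did not overlap. Of 25 scavenger and efferocytosis receptor genes, which serve the uptake of dead cells, 10 were higher and 5 (Tyro3, Pros1, Timd4, Scarb2 and Itgav) lower in both late libraries. The shares over all genes tested were 23% and 22.2%. Timd4, a phosphatidylserine receptor of resident macrophages, stood at 9.57 and 19.8 CPM early and 3.99 and 4.62 CPM late (-1.76, SE 0.44, adjusted p = 0.197).

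Iron handling genes were led by Slc40a1, which rose. It encodes ferroportin, the only known cellular iron exporter, and stood at 12 and 13.8 CPM early and 39.9 and 63.4 CPM late (+2.01, SE 0.30, adjusted p = 0.0468). Of 14 members 8 were higher in both late libraries and 0 lower (median +0.47), and DESeq2 called 4 higher. Hmox1, which frees iron from heme, had 627 and 936 CPM early and 1789 and 2410.4 CPM late (+1.43, SE 0.29, adjusted p = 0.117), and the ferritin chain gene Fth1 4277 and 5622 CPM early and 10208 and 11169 CPM late. Tfrc, the transferrin receptor that imports iron, overlapped (123 and 90.9 CPM early and 106 and 69.1 CPM late). Spic, the factor of red-pulp macrophages, was low throughout, at 6.35 and 10.9 CPM early and 13.8 and 11.1 CPM late. Ferritin genes have processed pseudogenes with which reads can be shared, so their levels are uncertain to that extent.

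Lysosomal genes were higher together. Of 40 hydrolase and membrane genes 0 passed edgeR's test, 19 had an unadjusted p under 0.05, all higher, and DESeq2 called 5 higher. In all, 32 were higher in both late libraries and 0 lower, with a median of +0.58. Ctsk, the collagen-cleaving cathepsin K, came closest, at 9.34 and 11.6 CPM early and 40.5 and 26.4 CPM late (+1.68, SE 0.31, adjusted p = 0.0879). Ctsd, the aspartic protease cathepsin D, had 1759.7 and 1001 CPM early and 2495 and 3404 CPM late. Lamp1, a protein of the lysosomal membrane, had 876 and 799 CPM early and 1243 and 1273 CPM late. Tfeb, the transcription factor of lysosomal genes, was also higher in both late libraries, by less than 2-fold (68.6 and 50.3 CPM early and 75.8 and 101 CPM late). Of the 40 genes 5 were higher in both late libraries by more than 2-fold.

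The vacuolar proton pump, which acidifies the lysosome, showed the same order. Its subunit gene Atp6v0d2 rose from 10.5 and 8.95 to 49.4 and 36.1 CPM (+2.14, SE 0.28, adjusted p = 0.0405), and 16 of 17 subunit genes were higher in both late libraries. Atp6v0d2 is a form of the d subunit known from osteoclasts and macrophages. The widely used d subunit, Atp6v0d1, had 177 and 195 CPM early and 236 and 284 CPM late (+0.48, SE 0.22, adjusted p = 0.449). The catalytic subunit gene Atp6v1a had 284 and 264 CPM early and 471 and 436 CPM late (+0.73, SE 0.22). The exception, lower in both late libraries, was Atp6v0a2, a form of the Golgi and endosomes (114 and 106 CPM early and 78.7 and 89.9 CPM late). Unstimulated BMDCs held 276 and 104 CPM of Atp6v0d2.

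Since the lysosomal and proton pump genes were higher together, the stretch of 250 bases before their start sites was searched for CACGTG, the palindromic E-box core that TFEB and related factors bind, which reads the same on either strand. RefSeq windows of GRCm38.p6 were found for 33 of the 40 lysosomal and 11 of the 17 pump genes, and none for Atp6v0d2. CACGTG was in the windows of 10 of the 33 (30.3%) and 2 of the 11 genes (18.2%), beside 9.72% of 10298 tested genes with a window and 6.86% of 27025 genes in all. For the hypoxia and glycolysis lists the shares were 14.8% and 14.3%. The genes searched were listed as known lysosomal and pump genes, so their promoters are not an independent sample. Ctsd and Atp6v1a are shown as members that hold it, with CACGTG in capitals. Both are on the minus strand, at chr7:142387828-142388077 and chr16:44139260-44139509. The Atp6v1a window lies inside the gene's span, which runs to 44139702, before a start site within that span.
Ctsd: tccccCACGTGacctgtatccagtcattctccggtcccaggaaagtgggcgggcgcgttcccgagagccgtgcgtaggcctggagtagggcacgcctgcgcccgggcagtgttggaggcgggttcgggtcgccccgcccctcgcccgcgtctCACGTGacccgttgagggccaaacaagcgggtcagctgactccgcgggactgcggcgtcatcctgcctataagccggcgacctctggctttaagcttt
Atp6v1a: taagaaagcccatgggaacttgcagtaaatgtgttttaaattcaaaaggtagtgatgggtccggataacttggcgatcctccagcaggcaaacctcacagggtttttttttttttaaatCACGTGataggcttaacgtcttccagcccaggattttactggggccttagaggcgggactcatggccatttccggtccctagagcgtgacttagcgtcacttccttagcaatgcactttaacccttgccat
Ctsd holds 2 matches and Atp6v1a 1. A match is a run of letters and does not show that a factor was bound in these cells.

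Hypoxia genes were higher at day 14, with the peptide gene Adm passing the test. Of 31 members 22 were higher in both late libraries and 1, Loxl2, lower, 9 of the higher ones by more than 2-fold, and the median was +0.70. DESeq2 called 6 of the 31 higher and 0 lower. Adm, which encodes the vasodilator adrenomedullin, stood at 7.85 and 9.85 CPM early and 37.1 and 34.6 CPM late (+2.02, SE 0.27, adjusted p = 0.0405). Ak4, a mitochondrial adenylate kinase, had 21.3 and 19.5 CPM early and 49 and 58.7 CPM late (+1.40, SE 0.24, adjusted p = 0.0787), and Ankrd37 9.95 and 9.19 CPM early and 21.6 and 25.5 CPM late (+1.29, SE 0.28). In these 3 genes the 2 early libraries were alike. Egln3, an oxygen-sensing prolyl hydroxylase that is itself induced by hypoxia, had 34.1 and 114 CPM early and 193 and 213 CPM late, and the growth factor gene Vegfa 115 and 499 CPM early and 504 and 496 CPM late. For Vegfa early library 2 stood at the late level and only early library 1 was low. Hif1a, whose protein rather than RNA is controlled by oxygen, overlapped at 152 and 343 CPM early and 204 and 166 CPM late.

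Hypoxia-inducible factors bind the core ACGTG or GCGTG, which was searched on either strand in the same windows. Of the 31 hypoxia genes 27 had a window and all 27 held the core in at least 1 window, beside 60.0% of the tested genes and 41.5% of all genes with one. Counted by windows, which number 38 for these genes since some have several start sites, 84.2% held it, beside 54.2% of those of tested genes. These genes were listed as known targets of the pathway, so their promoters are not an independent sample. Adm, Ankrd37 and Egln3 are shown with the core in capitals, as ACGTG or GCGTG where it lies on the printed strand and as CACGT or CACGC where it lies on the other. They lie at chr7:110627407-110627656 on the plus strand, chr8:45999851-46000100 on the minus strand and chr12:54203875-54204124 on the minus strand.
Adm: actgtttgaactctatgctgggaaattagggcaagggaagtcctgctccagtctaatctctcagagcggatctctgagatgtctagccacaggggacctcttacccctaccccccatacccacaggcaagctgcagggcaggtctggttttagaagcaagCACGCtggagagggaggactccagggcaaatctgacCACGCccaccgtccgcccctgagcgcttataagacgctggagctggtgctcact
Ankrd37: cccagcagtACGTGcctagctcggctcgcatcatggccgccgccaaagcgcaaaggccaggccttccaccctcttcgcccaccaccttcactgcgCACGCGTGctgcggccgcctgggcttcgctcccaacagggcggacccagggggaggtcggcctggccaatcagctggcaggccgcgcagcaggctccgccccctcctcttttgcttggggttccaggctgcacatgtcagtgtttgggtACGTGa
Egln3: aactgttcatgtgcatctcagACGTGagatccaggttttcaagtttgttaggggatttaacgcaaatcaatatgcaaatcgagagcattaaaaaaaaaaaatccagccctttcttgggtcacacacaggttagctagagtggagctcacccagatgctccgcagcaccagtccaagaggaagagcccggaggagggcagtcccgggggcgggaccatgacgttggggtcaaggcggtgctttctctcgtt
Adm holds 2 cores, both on the other strand, Ankrd37 holds 4 and Egln3 holds 1. Whether any of them was bound was not measured.

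Glycolytic enzymes followed, with 17 of 22 genes higher and 3 (Slc2a3, Pfkp and Slc16a1) lower in both late libraries (median +0.57). None passed edgeR's test, with 11 higher and 1 lower at an unadjusted p under 0.05, and DESeq2 called 2 higher and 1 lower. Aldoa, aldolase A, stood at 1703 and 1711 CPM early and 2751 and 3380.2 CPM late (+0.84, SE 0.25, adjusted p = 0.254), and the glucose transporter gene Slc2a1 at 271 and 490.3 CPM early and 925 and 884 CPM late (+1.25, SE 0.31). Slc2a3, the high-affinity glucose transporter that lymphocytes use, went the other way, at 74.7 and 82.9 CPM early and 46.8 and 30.2 CPM late (-1.03, SE 0.27, adjusted p = 0.206). Both transporters were without overlap. Slc6a8, which imports creatine, and Ppp1r3b, a glycogen-targeting subunit of protein phosphatase 1, are on none of the lists and rose. Slc6a8 went from 53.5 and 53.9 to 143 and 150.4 CPM (+1.45, SE 0.21, adjusted p = 0.0450), and Ppp1r3b from 29.2 and 31.9 to 92.9 and 88.3 CPM (+1.57, SE 0.22).

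The other genes that rose were Bhlhe41 and Rusc2. Bhlhe41, a repressor of the circadian clock family that tissue macrophages use, had 17 and 13.8 CPM early and 49.9 and 60.5 CPM late (+1.84, SE 0.25, adjusted p = 0.0405). Its relative Bhlhe40 overlapped, at 339 and 926 CPM early and 617 and 603 CPM late, with early library 2 highest. Rusc2 had 38.4 and 42.3 CPM early and 114 and 118 CPM late (+1.52, SE 0.22). Next by p among well expressed genes were Ch25h, the cholesterol 25-hydroxylase, at 14.8 and 12.9 CPM early and 45.3 and 39.8 CPM late (adjusted p = 0.0522), and Tmem119, at 12.7 and 12.3 CPM early and 35.4 and 45.6 CPM late (adjusted p = 0.0522). Neither passed, although in both the stages were well apart.

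Inflammatory cytokine genes differed more between the 2 early libraries (median 0.90 on the log2 scale, library 2 minus library 1) than between the stages (median -0.32). Il1b, the gene of interleukin 1 beta, had 291 and 2736 CPM early and 1305 and 928 CPM late, and Il1a 7.71 and 159 CPM early and 84.7 and 47 CPM late. Early library 1 was lowest and early library 2 highest of the 4 for both, and without early library 2 their log2 fold changes turned from -0.44 and -0.33 to 1.94 and 3.10. Ptgs2, the prostaglandin synthase COX-2, had the same order (219 and 1635 CPM early and 1129.8 and 855 CPM late). The inducible heat shock gene Hspa1a, which responds to tissue dissociation, was also lowest in early library 1 (128 and 654 CPM early and 543 and 1177 CPM late), and its part in these values was not tested. Il10, an inhibitory cytokine, was lower in both late libraries (27.2 and 53.6 CPM early and 19.2 and 22.6 CPM late, -0.95, SE 0.34, adjusted p = 0.360).

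Several matrix-degrading enzymes and growth factors were higher in both late libraries. None of those in this paragraph passed edgeR's test, while DESeq2 called Mmp12, Mmp8, Arg1 and Igf1 higher. Mmp12, macrophage elastase, stood at 78.9 and 269 CPM early and 1061 and 901 CPM late (+2.50, SE 0.58, adjusted p = 0.239). Mmp8, a collagenase that neutrophils store, had 4.39 and 16.8 CPM early and 86 and 55.8 CPM late (+2.76, SE 0.64), whereas the neutrophil genes S100a8 and S100a9 were high in late library 1 alone. Of 20 matrix-degrading enzymes and inhibitors 10 were higher and 2, Adamts1 and Timp3, lower in both late libraries, and the median of +0.54 ranged from 0.26 to 1.18 when 1 library was left out. Arg1, arginase 1, had 121 and 466 CPM early and 948 and 983 CPM late (+1.72, SE 0.63, adjusted p = 0.406). Igf1, a growth factor of tissue macrophages, had 36 and 34.2 CPM early and 76.8 and 87.7 CPM late (+1.23, SE 0.22, adjusted p = 0.0858). In Igf1 the 2 libraries of each stage were alike, and in Mmp12 and Arg1 early library 1 was the lowest by more than 3-fold.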

How the data were processed

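RNA-seq read counts per gene were deposited by the authors as whole numbers. The submitters' processing notes name the mm10 build, featureCounts 2.0.1, HISAT2 2.2.1 and fastp 0.12.4, while counting by strand is not given in the sources used here. The extraction protocol in the labels describes retinas, a tissue other than the one labelled, so how these cells' RNA was taken is unclear. The labels name a TruSeq RNA kit. Of 32190 symbols, 13040 passed edgeR's filterByExpr (minimum count 10), and they held 99.89% to 99.95% of each library's counts. edgeR 4.0.16 (R 4.3.3) with TMM scaling and the robust quasi-likelihood test compared the stages, with Benjamini-Hochberg adjustment. SE is the log2 fold change divided by the square root of F. The script was tested on simulated counts. DESeq2 1.42.0, limma-voom 3.58.1 and other scalings and filters were alternatives.

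Genes were named when called, among the 12 smallest p in each direction above an average log2 CPM of 3 without overlap between the stages (predicted, ribosomal protein and antigen receptor segment genes left out), defining markers, or the 2 smallest p in each direction of a list. Ankrd37, Atp6v0d1, Bhlhe40, Cd4, Gbp2b, Hif1a, Ifng, Igkc, Mcm2, Pecam1, Postn, Ppbp, Ptgs2, Tap1, Tcf7, Tek, Tfeb and genes named without values to spell out small counts were added after their values were seen. The members and lists were chosen with earlier results of these data known, and no list was tested. "Higher in both late libraries" means that both late values exceeded both early ones. That held for 23% of all genes tested, and 22.2% were lower in both, so a list's count near these shares is not particular to it. BMDC values are CPM of the library total. Promoter windows are RefSeq's (GRCm38.p6). Values of some genes on the lists are not reported here, nor drawn by name.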

Additional observations from a re-analysis of the deposited data

How the results depend on the processing

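All 31 called genes kept their direction in every alternative that gave them a value, but the number of calls moved with the method, and the cause was not tested. Genes higher and lower numbered 0 and 0 with DESeq2's size factors (edgeR, 1498 genes at an unadjusted p under 0.05, smallest adjusted p 0.0519), 15 and 32 with upper-quartile scaling, 13 and 33 with library size alone, 39 and 100 without a count filter, and 0 and 0 with a filter of 10 CPM (989, smallest 0.0771). They numbered 80 and 231 with DESeq2, 0 and 0 with limma-voom (1497, smallest 0.0565), 8 and 23 without robust estimation, and 0 and 3 with edgeR's older quasi-likelihood method (smallest 0.0444). Without the 169 markers of other cell types they numbered 0 and 0 of 12871 genes (1461, smallest 0.0541). With 1 symbol of each set of identical counts, an alternative chosen after seeing the data, they numbered 9 and 21. Leaving out 1 library gave 0 to 292 higher and 0 to 840 lower: 286 and 840 without early replicate 1, 292 and 391 without early replicate 2, and 0 and 0 without late replicate 1 (1287 unadjusted) or late replicate 2 (422 unadjusted). The lone library of a stage is then assumed to vary like the other stage. Whether replicate numbers pair the libraries across the stages is not known. The deviations of early 1 and late 1 correlated at -0.038 over the genes, which cannot exclude pairing that touches part of the genes. With the number as a block 37 genes were higher and 152 lower. Of 316 named genes 38 changed sign without early replicate 2, and 5 of these passed edgeR's test there, with ranges over the omitted libraries of -1.25 to 1.20 for Cd80, -1.29 to 1.94 for Il1b, -1.26 to 3.10 for Il1a, -0.75 to 1.26 for Areg and -0.78 to 1.68 for Ccr7. Of 751 list medians under alternatives 38 changed sign, and of the 21 lists with a median beyond 0.4 in size 2 medians did, those of neutrophils and eosinophils. Depth limits genes under about 1 CPM, and 2 libraries a stage limit every p-value.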

Other observations

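Proliferation genes were uneven. Of 31 cell cycle genes 26 overlapped between the stages, 5 were lower in both late libraries (Mki67, Top2a, Cenpe, Kif11 and Mcm4) and 0 higher. Over all genes tested 22.2% were lower and 23% higher. The list's median of +0.054 ranged from -0.33 to 0.53 when 1 library was left out. Mki67, the antigen Ki-67, had 73.4 and 104 CPM early and 41.7 and 23.4 CPM late (-1.44, SE 0.32, edgeR adjusted p = 0.164), and Cenpe, a motor protein of mitosis, 14.8 and 13.8 CPM early and 4.18 and 4.39 CPM late (-1.73, SE 0.34). The replication gene Mcm2 did not follow them (121 and 62.7 CPM early and 91.5 and 119 CPM late). Over the list, early library 2 lay below early library 1 by a median of 0.86 on the log2 scale.

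Genes of the respiratory chain had a median of +0.21, with 12 of 30 higher and 0 lower in both late libraries and 0 past edgeR's test, an unadjusted p of 0.05 or DESeq2. Among 23 genes of the unfolded protein and integrated stress response, Trib3, a pseudokinase induced by amino acid stress, had the smallest p, at 7.99 and 7.51 CPM early and 26.1 and 19.999 CPM late (+1.57, SE 0.30, adjusted p = 0.0945). Among the chemokine genes, Ccl12, a ligand of CCR2, was higher in both late libraries (36.8 and 52.2 CPM early and 109.8 and 91.3 CPM late). Coagulation factor VII, F7, was higher in both (23.4 and 34.3 CPM early and 59.6 and 74.3 CPM late, +1.22, SE 0.27, adjusted p = 0.143). Nos3, the endothelial nitric oxide synthase, was lower in both (1.35 and 1.86 CPM early and 0.254 and 0.227 CPM late), as were the endothelial genes Tek (1.4 and 1.02 CPM early and 0.0634 and 0 CPM late) and Tie1 (5.7 and 6.06 CPM early and 1.65 and 0.53 CPM late), all at low levels.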
